A study of Mus musculus with 24 samples.

Results

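Short RNA fragments mapped within 8 protein-coding genes, Camk2b, Rbbp8, Srsf1, Rpl8, Tbce, Zc3hav1, Ctse and Ppat, stood far higher in the extracellular vesicles (EVs) of resting mouse CD4+ T cells than in any other library of the study. The 8 genes were taken by name from the 4408 features counted (2692 of them protein-coding), and all 8 were found in all 24 libraries. They had been picked because earlier work on these counts showed them to be high in resting EVs. That height is therefore described here without a test, and tests were kept to comparisons within the DMSO and GW4869 libraries. Low levels in those libraries may have entered the choice too, so nothing is read from how many of the 8 genes passed against the share of all features.

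The libraries were small RNA libraries, 3 in each of 8 groups, of total RNA extracted with Trizol from CD4+ T cells of C57BL/6 spleen and lymph nodes and from the EVs in their culture media. GW4869 EVs and GW4869 cells came from cultures stimulated for 3 days with GW4869, an inhibitor of neutral sphingomyelinase, and DMSO EVs and DMSO cells came from cultures stimulated for 3 days with the vehicle; the labels give no antibody dose for either. Stimulated EVs and stimulated cells came from 3 days of stimulation with antibodies, anti-CD3 bound to the plate at 2 µg/ml with 5 µg/ml of anti-CD28. Resting EVs and resting cells came from cells with 2 days of stimulation, 1 day of expansion and then 2 days of rest in medium with IL2, so that they too had been activated before. Resting and stimulated cultures therefore differed in culture history as well as in stimulation, and these cannot be told apart. The labels leave unsaid whether libraries of one group were separate mice or separate dishes, and p-values here cover the spread between libraries, which may be technical.

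EVs are membrane-bound particles that cells release, some by budding into endosomes and some from the cell surface, and they carry proteins and short RNAs. Neutral sphingomyelinase makes ceramide, a lipid involved in forming part of the vesicle pool. In a small RNA library, reads within a protein-coding gene are short pieces of its transcripts or of other RNAs that map there. The values below are counts of such fragments and not mRNA levels. Placed by name in GENCODE M21, 0 listed small RNAs lay within the bounds of the 8 genes. Features with no entry of their name there, such as the tRNA fragments and AC-numbered miRNA loci named below, could not be placed. In bulk libraries, more vesicles of one kind and more fragments per vesicle cannot be told apart.

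Total counts per library ranged from 1290918 (GW4869 EVs replicate 1) to 3231626 (resting EVs replicate 3). Of 20 T cell genes looked for, 8 were listed, with summed levels of 173574 to 243652 CPM (TMM-scaled counts per 1e6) in resting EVs and 240262 to 269964 CPM in resting cells. Most of each sum was Mir142, which averaged 174600 CPM in resting EVs and 230200 CPM in resting cells. Cd3e averaged 53.71 and 67.13 CPM. Of 4 myeloid and 4 B cell markers, 0 were listed. Of 3 platelet and liver markers 1 was, Mir126a, at 147.8 to 163.3 CPM in resting EVs and 109.9 to 116.7 CPM in resting cells. It did not pass (log2 fold 0.42 ± 0.23 SE, adjusted p = 0.161, edgeR). The erythroid marker Mir451a, the only 1 of 5 listed, was higher in resting EVs than in resting cells (log2 fold 2.11 ± 0.39 SE, adjusted p = 8.06e-05, edgeR), at 48.2 to 95.87 CPM against 9.675 to 31.41 CPM. Resting cells had its lowest group mean. Resting EVs overlapped in it with stimulated cells (58.38 to 83.53 CPM) and stimulated EVs (33.06 to 71.87 CPM). The part of Mir451a in the results was not tested. The smallest count of any listed feature in any library was 4, so fragments seen in resting EVs alone were not analysed here.

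The promoters of 3 of the 8 genes are shown because the genes moved together in resting EVs. They are those with the 2 highest fragment counts in resting EVs, Camk2b and Zc3hav1, and Ppat, which shares its place with an antisense gene. Each is the 250 bases before the gene's start in RefSeq (GRCm38.p6, minus strand), at chr11:6065749-6065998 for Camk2b, chr6:38354604-38354853 for Zc3hav1 and chr5:76951579-76951828 for Ppat, with matches to the GC box GGGCGG in capitals. By GENCODE M21, which gives the gene bounds below, Camk2b runs up to 6066362, so its window lies inside the gene there.
Camk2b: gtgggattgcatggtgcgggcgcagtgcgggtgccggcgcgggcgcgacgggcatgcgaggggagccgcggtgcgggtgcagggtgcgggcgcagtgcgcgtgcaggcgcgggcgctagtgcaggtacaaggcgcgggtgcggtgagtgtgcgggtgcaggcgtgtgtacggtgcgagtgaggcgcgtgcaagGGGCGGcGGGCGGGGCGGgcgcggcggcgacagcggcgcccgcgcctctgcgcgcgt
Zc3hav1: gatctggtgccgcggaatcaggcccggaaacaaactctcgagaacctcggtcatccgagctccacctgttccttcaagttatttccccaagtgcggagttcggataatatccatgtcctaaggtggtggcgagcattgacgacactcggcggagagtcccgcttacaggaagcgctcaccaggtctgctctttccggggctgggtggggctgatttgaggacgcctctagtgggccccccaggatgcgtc
Ppat: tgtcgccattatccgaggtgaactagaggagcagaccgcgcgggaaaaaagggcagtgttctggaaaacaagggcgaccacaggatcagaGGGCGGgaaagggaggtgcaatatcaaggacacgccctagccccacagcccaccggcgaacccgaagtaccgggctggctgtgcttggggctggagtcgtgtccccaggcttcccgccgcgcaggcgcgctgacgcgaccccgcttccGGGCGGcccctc

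Promoter windows were at hand for 5 of the 8 genes, and they had little in common. The GC content was 78.4% for Camk2b, 65.6% for Ppat, 58.8% for Srsf1 and Zc3hav1 and 51.6% for Tbce, against a median of 52.4% over 32851 windows. On both strands, the GC box occurred 3 times in the Camk2b window and 2 times in that of Ppat. It occurred 1 time in that of Srsf1 and 0 times in those of Zc3hav1 and Tbce, and 32.7% of all windows held it. None of the 5 windows held CCAAT, which 33.8% of all windows held, or TATAAA, which 12.4% held. These are matches of letters in the windows and nothing more.

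The 8 genes belong to unrelated pathways. Camk2b (chromosome 11, 5969644 to 6066362, minus strand, GRCm38) encodes the beta subunit of calcium/calmodulin-dependent kinase II, best known from neurons. Rbbp8 (chromosome 18, 11633276 to 11745221, plus strand) encodes CtIP, which starts the trimming of broken DNA ends for repair. Srsf1 (chromosome 11, 88047373 to 88053755, plus strand) is a splicing factor of the SR family, and Rpl8 (chromosome 15, 76904078 to 76906314, plus strand) encodes a large-subunit ribosomal protein. Tbce (chromosome 13, 13997949 to 14039638, minus strand) is a cofactor that helps to fold tubulin. Zc3hav1 (chromosome 6, 38305286 to 38354603, minus strand) encodes ZAP, an antiviral protein that binds CpG-rich RNA. Ctse (chromosome 1, 131638306 to 131675505, plus strand) encodes cathepsin E, an aspartic protease of endosomes, and Ppat (chromosome 5, 76913249 to 76951578, minus strand) the enzyme of the committed step of purine synthesis. The 8 genes lie on 7 chromosomes, and where within each gene the reads fell is not known from the counts.

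Together the 8 genes took 0.191 ± 0.00481% of all counts in resting EVs (SD, n = 3), with no scaling between libraries. They took 0.0341 ± 0.00701% in GW4869 EVs, 0.0222 ± 0.00517% in DMSO EVs and 0.0175 ± 0.00154% in stimulated EVs. In cells the share was 0.013 ± 0.000154% with GW4869, 0.00958 ± 0.000314% with DMSO, 0.0134 ± 0.0013% in stimulated and 0.00677 ± 0.000608% in resting cells. Resting EVs thus had the highest share of the 8 groups and their own cells the lowest. Camk2b made up 62.8 ± 0.376% of the counts of the 8 genes in resting EVs and 21.6 ± 4.12% in resting cells. Its share was as high or higher in the other EVs, at 62.6 ± 3.79% in stimulated, 66.5 ± 3.09% in DMSO and 76.0 ± 4.65% in GW4869 EVs. In the other cells it was 63.0 ± 3.32% in stimulated, 37.0 ± 8.9% in DMSO and 47.8 ± 2.66% in GW4869 cells, so resting cells had the lowest share.

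In all 8 genes, each of the 3 resting EV libraries lay above each of the other 21 libraries. Of all features 6.56% did so, and of protein-coding features 4.64%; the genes were picked for this height, so nothing is read from the count. The margin, taken as the lowest resting EV library over the highest of the other 21, was 12.1 for Rbbp8, 10.1 for Camk2b, 9.96 for Tbce, 9.61 for Rpl8 and 9.51 for Zc3hav1. These 5 had the 5 largest margins of the 4408 features. Ppat (6.65), Srsf1 (6.5) and Ctse (3.74) ranked 15, 16 and 38. Down to rank 38 the list held 30 other features, of which 16 were protein-coding genes, 6 tRNA fragments, 3 loci annotated as miRNAs and 3 antisense genes, so the 8 genes are not all that stood out in resting EVs.

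**Figure D1:**
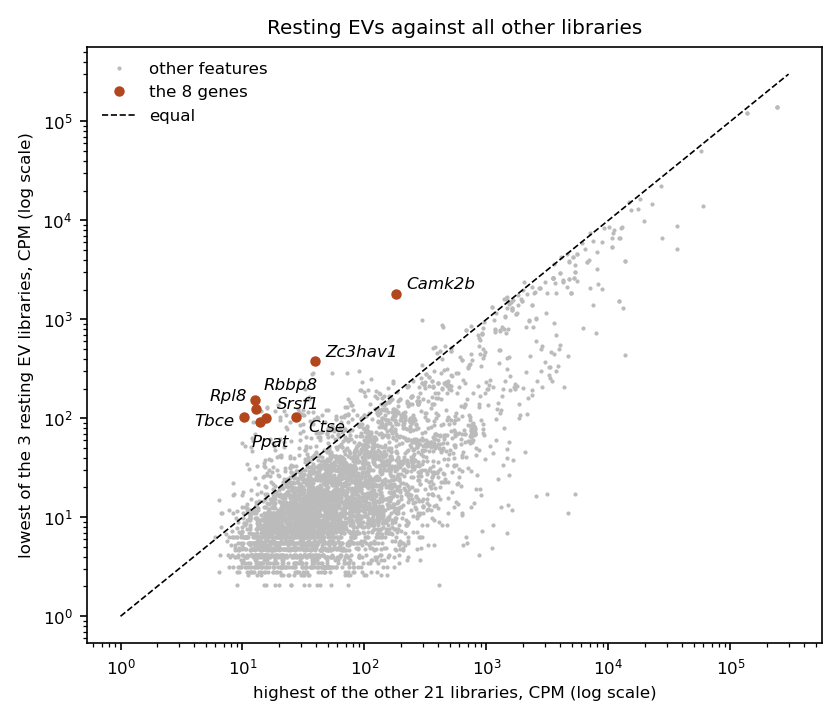
Each point is 1 of 4408 features, with the highest of the other 21 libraries on the x axis and the lowest of the 3 resting EV libraries on the y axis, both in CPM on log scales. The 8 genes, in red, lie above the dashed line of equality by margins of 3.74 (Ctse) to 12.1 (Rbbp8).

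Camk2b fragments stood at 1951, 1816 and 1977 CPM in the 3 resting EV libraries, against 30.58, 25.07 and 21.11 CPM in resting cells. The gap was a log2 fold of 6.22 ± 0.25 (SE), the widest of the 8 genes and without a test here. Elsewhere Camk2b had 180.0, 171.9 and 111.0 CPM in GW4869 EVs and 61.6, 56.15 and 69.14 CPM in GW4869 cells. It had 98.19, 100.9 and 126.1 CPM in DMSO EVs and 34.74, 52.23 and 31.17 CPM in DMSO cells. In stimulated EVs it had 79.24, 76.28 and 85.31 CPM, and in stimulated cells 88.28, 82.54 and 82.55 CPM. EV libraries lay above all cell libraries of the same culture in GW4869, DMSO and resting cultures and overlapped with them in stimulated cultures. Of all features, EVs lay above cells in all libraries for 38.1% in GW4869, 35.4% in DMSO, 34.2% in stimulated and 27.6% in resting cultures. In order of the mean, resting EVs came first at 1915 ± 86.6 CPM, then GW4869 EVs at 154.3 ± 37.7 CPM and DMSO EVs at 108.4 ± 15.4 CPM, whose libraries overlapped. Stimulated cells and stimulated EVs overlapped in the middle of the order, and GW4869 cells, DMSO cells and resting cells (25.59 ± 4.76 CPM) followed without overlap.

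Rbbp8, Srsf1, Rpl8 and Tbce were low outside resting EVs. Rbbp8 had 171.5, 152.1 and 175.4 CPM in resting EVs and 5.786, 5.483 and 7.916 CPM in resting cells, a log2 fold of 4.70 ± 0.35. The other 7 groups averaged 5.885 to 10.49 CPM of Rbbp8, each overlapping with the next in order. Srsf1 had 120.1, 101.4 and 129.8 CPM in resting EVs and 4.959, 5.483 and 4.398 CPM in resting cells (4.55 ± 0.42), and its other groups averaged 4.947 to 11.48 CPM. The highest of these, stimulated EVs at 11.0, 7.831 and 15.61 CPM, lay above resting cells in every library. These are ranges of a few reads: the smallest count of Srsf1 in a library was 5 and the largest outside resting EVs 44.

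Rpl8 had 123.3, 123.7 and 139.3 CPM in resting EVs and 10.75, 5.483 and 5.278 CPM in resting cells, a log2 fold of 4.16 ± 0.31. Without resting cells replicate 1, the highest of the 3, the fold was 4.57. Tbce had 102.7, 102.1 and 120.9 CPM in resting EVs and 3.306, 9.4 and 7.037 CPM in resting cells (4.03 ± 0.35). The other 7 group means lay between 6.265 and 10.54 CPM for Rpl8 and between 3.818 and 7.045 CPM for Tbce, and in both genes neighbours in the order overlapped. In Tbce, stimulated EVs, at 6.749, 4.64 and 6.534 CPM, lay above stimulated cells, at 4.272, 3.48 and 3.702 CPM, in every library, a difference of a few reads and without a test.

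Zc3hav1 had a second, lower step in the resting cultures. It stood at 417.2, 408.5 and 376.4 CPM in resting EVs and 33.89, 34.47 and 39.58 CPM in resting cells, a log2 fold of 3.48 ± 0.24. Its other 6 groups averaged 8.618 to 11.96 CPM and overlapped, and no library among them reached the lowest resting cell library. The level in stimulated cells was lower than in resting cells by a log2 fold of -1.93 ± 0.26, given without a test, in a comparison where 46.1% of all features passed (23% higher, 23.1% lower).

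Ctse and Ppat had the smallest folds of resting EVs over resting cells among the 8 genes. Ctse had 101.9, 104.2 and 127.2 CPM in resting EVs and 23.97, 16.45 and 27.27 CPM in resting cells, a log2 fold of 2.30 ± 0.28. In the other cultures the order was turned round. Ctse had 3.95, 4.817 and 5.305 CPM in GW4869 EVs and 23.23, 11.72 and 13.28 CPM in GW4869 cells. It had 4.258, 6.198 and 5.433 CPM in DMSO EVs and 18.53, 13.63 and 15.25 CPM in DMSO cells. In stimulated EVs it had 4.0, 2.32 and 2.178 CPM, and in stimulated cells 5.696, 8.95 and 11.11 CPM. In each of these 3 cultures every EV library lay below every cell library, while in resting cultures every EV library lay above. Of all features, EVs lay below cells in all libraries for 32.8% in GW4869, 27.4% in DMSO and 31.3% in stimulated cultures. The 8 genes were chosen as high in resting EVs, so the base is the 1216 features with EVs above cells in all resting libraries. Of these 1216, EVs lay below cells in every library for 259 in GW4869, 159 in DMSO and 261 in stimulated cultures. As shares of all features, these were 5.88%, 3.61% and 5.92%. In the fit, 53.5% of all features differed between stimulated EVs and stimulated cells (27.7% higher, 25.8% lower).

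Ppat had 97.19, 92.39 and 113.6 CPM in resting EVs and 10.75, 6.267 and 12.31 CPM in resting cells, a log2 fold of 3.37 ± 0.35. It had 4.524, 5.313 and 3.146 CPM in DMSO EVs and 13.9, 10.79 and 11.94 CPM in DMSO cells, without overlap. In GW4869 EVs it had 5.267, 2.223 and 4.897 CPM and in GW4869 cells 4.322, 6.835 and 11.45 CPM, with overlap. Stimulated EVs, at 1.75, 3.48 and 4.356 CPM, overlapped by 1 library with stimulated cells, at 4.272, 6.961 and 9.254 CPM. The smallest count of Ppat in a library was 6.

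**Figure D2:**
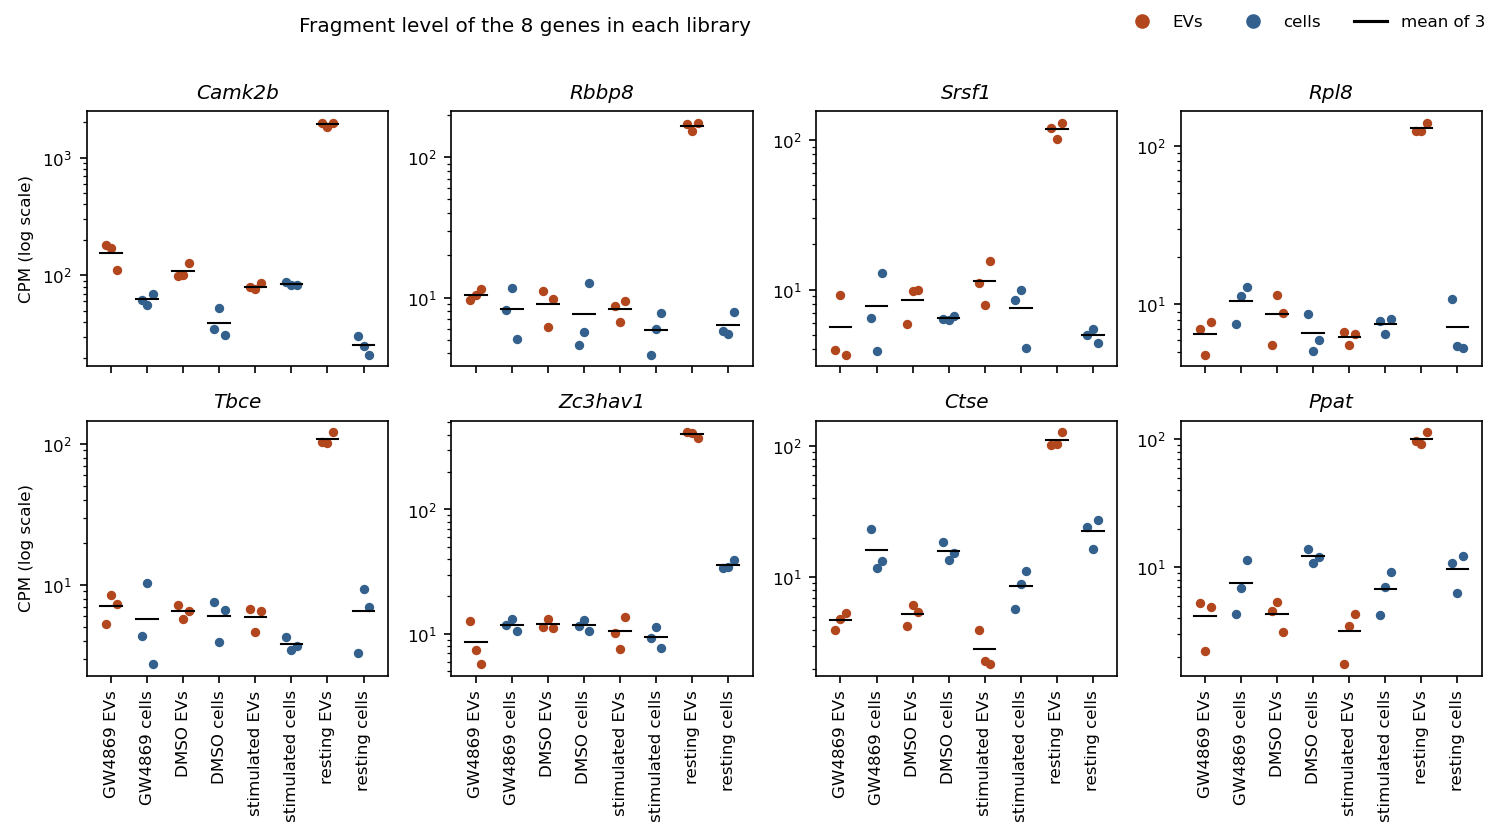
Each panel shows 1 gene, with fragment level in CPM on a log axis for each of the 24 libraries (points, EVs in red and cells in blue) and the mean of the 3 libraries of each group (bars). Resting EVs stand above all other groups in each panel, at means of 101.1 CPM for Ppat to 1915 CPM for Camk2b.

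Per length, which is needed to set genes side by side, the order of levels in resting EVs depended on which length was used. Over the annotated exons, Camk2b had 210.0 CPM per kb, Rpl8 94.7, Zc3hav1 61.5, Ctse 35.1, Tbce 23.9, Ppat 22.9, Srsf1 20.5 and Rbbp8 13.3 CPM per kb. Over the whole gene, Rpl8 came first with 57.5 CPM per kb, ahead of Camk2b (19.8) and Srsf1 (18.3), and Rbbp8 last with 1.49. The counts do not say whether the fragments came from exons or introns.

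Across the EVs, the 8 genes were lower in all 3 kinds of stimulated culture than in resting EVs, given here as values without a test. The log2 folds of stimulated over resting EVs ran from -5.25 (Zc3hav1) to -3.36 (Srsf1), with a median of -4.46 against 0.09 over all features. Those of DMSO over resting EVs ran from -5.07 to -3.79 and those of GW4869 over resting EVs from -5.54 to -3.63. Of all features 56.8% passed in DMSO against resting EVs (31.3% higher, 25.5% lower) and 66.4% in GW4869 against resting EVs (35.5% higher, 30.9% lower). All of them share the 3 resting EV libraries. The TMM factors were 0.591 to 0.659 in resting EVs and 1.09 to 1.76 in the other EVs, and with plain library totals the folds of stimulated over resting EVs shrank to -4.15 to -2.24, with the median of all features moved up by 1.12. Library totals likewise gave -3.97 to -2.67 for DMSO over resting EVs (median moved up by 1.12) and -4.11 to -2.20 for GW4869 over resting EVs (by 1.42).

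Whether EVs and cells differed was tested in DMSO cultures. Camk2b fragments were higher in DMSO EVs than in DMSO cells, at 108.4 ± 15.4 CPM against 39.38 ± 11.3 CPM (SD, n = 3 each), a log2 fold of 1.46 ± 0.21 (SE, adjusted p = 1.88e-06, quasi-likelihood test in edgeR, Benjamini-Hochberg adjustment over 4408 features). Ctse was lower in DMSO EVs, at 5.296 ± 0.978 CPM against 15.8 ± 2.5 CPM (-1.59 ± 0.32, adjusted p = 0.000126, edgeR). Ppat was lower too, at 4.327 ± 1.1 CPM against 12.21 ± 1.57 CPM (-1.51 ± 0.38, adjusted p = 0.00118, edgeR). The other 5 genes did not pass, with folds of 0.01 to 0.39, although with library totals Rbbp8, Srsf1, Rpl8 and Zc3hav1 passed as higher in EVs (0.6 to 0.98). Of all features 65.4% passed in this comparison, 37% higher and 28.4% lower. Of the features that passed 56.6% were higher, and 74.8% with library totals.

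In GW4869 cultures Camk2b was again higher in EVs, at 154.3 ± 37.7 CPM against 62.29 ± 6.52 CPM in GW4869 cells (SD, n = 3 each), a log2 fold of 1.31 ± 0.21 (SE, adjusted p = 4.46e-06, edgeR). Ctse was lower in GW4869 EVs, at 4.691 ± 0.686 CPM against 16.08 ± 6.25 CPM (-1.75 ± 0.33, adjusted p = 4.27e-05, edgeR). Rpl8 passed narrowly as lower, at 6.531 ± 1.53 CPM in GW4869 EVs against 10.54 ± 2.7 CPM in GW4869 cells (-0.70 ± 0.31, adjusted p = 0.0484, edgeR). That call was lost without GW4869 cells replicate 2 or 3 and without GW4869 EVs replicate 1, 2 or 3 (adjusted p = 0.0709 to 0.304, edgeR), and with library totals the fold was 0.06. Ppat, at -0.90 ± 0.40, missed the threshold (adjusted p = 0.0519, edgeR) and passed without GW4869 cells replicate 1 (-1.16, adjusted p = 0.0173), with RLE factors (adjusted p = 0.0272), with DESeq2 (0.0256) and in a fit on 12 libraries (0.0391). The other 4 genes did not pass, but Tbce did without GW4869 cells replicate 2 (1.01, adjusted p = 0.0294), Zc3hav1 without GW4869 EVs replicate 1 (-0.75, adjusted p = 0.0234), and Rbbp8 and Tbce with library totals (1.09 and 1.03). The share of all features that passed was 68.2%, with 36.2% higher and 32% lower; of those that passed 53% were higher, and 74.9% with library totals.

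Neuronal genes other than Camk2b were higher in EVs in the same direction as Camk2b in DMSO and GW4869 cultures, but not in step with it in the other cultures. Of 16 looked for, 5 were listed, Mir128-1 and Syt1 among them, and 4 were higher and 0 lower in DMSO EVs than in DMSO cells, with a median log2 fold of 1.31 against 0.29 over all features. In GW4869 cultures the EVs had 4 of them higher and 1 lower, and the median was 1.78 against 0.18. Their summed level was 1058 to 2004 CPM in GW4869 EVs against 179 to 226.1 CPM in GW4869 cells, and 359.1 to 700.4 CPM in DMSO EVs against 160.1 to 224.1 CPM in DMSO cells. In resting cultures, where Camk2b was highest, it was 244 to 348 CPM in EVs and 220.7 to 264.8 CPM in cells, and 1 of the 5 was higher. In stimulated cultures, where Camk2b overlapped between EVs and cells, 4 were higher in EVs and 0 lower, with sums of 317 to 376 CPM in stimulated EVs and 162.1 to 199 CPM in stimulated cells. Camk2a, the companion subunit, was not among the features listed, and the part of neuronal RNA was not tested.

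**Figure D3:**
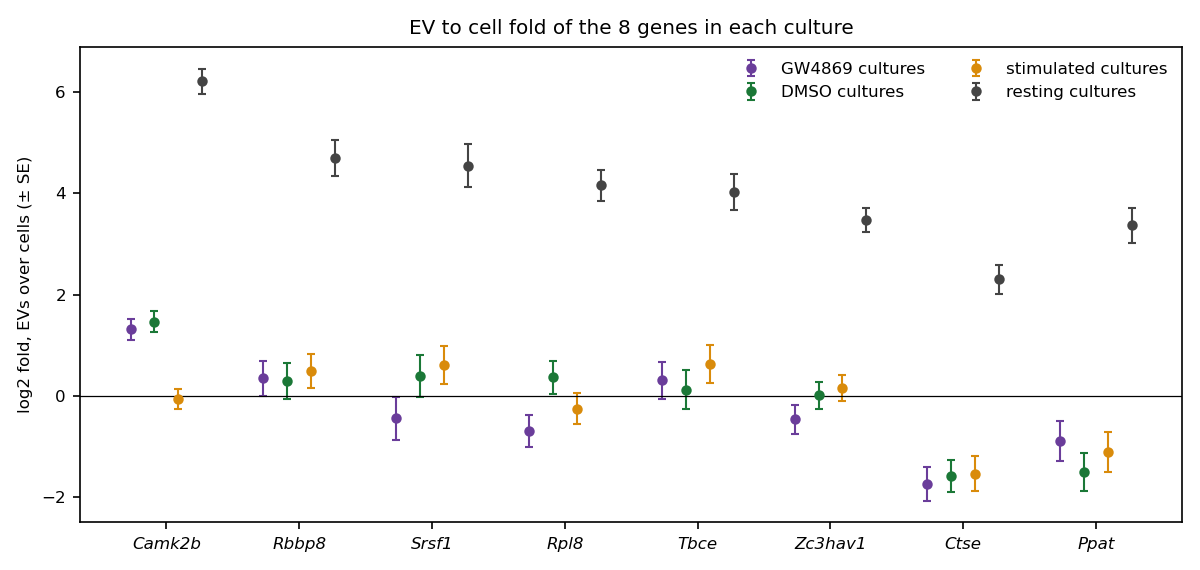
The points are log2 folds of EVs over cells, with standard errors, for each of the 8 genes in each of the 4 cultures. All 8 genes lie at 2.30 or more in resting cultures, while in GW4869, DMSO and stimulated cultures Ctse and Ppat lie below 0 and Camk2b reaches 1.46 at most.

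GW4869 against DMSO moved none of the 8 genes past the threshold. In EVs 0 of 8 passed (edgeR), where 17.6% of all features did (7.89% higher and 9.69% lower), and 1 gene, Camk2b, had an unadjusted p under 0.05. Its level was 154.3 ± 37.7 CPM in GW4869 EVs against 108.4 ± 15.4 CPM in DMSO EVs (log2 fold 0.51 ± 0.20, adjusted p = 0.0742, edgeR). It passed without DMSO EVs replicate 3 (0.63, adjusted p = 0.0477) and without GW4869 EVs replicate 3 (0.82, adjusted p = 0.0162), and with DESeq2 (0.51, adjusted p = 0.0393), which called 1 of the 8 genes. The folds of the 8 genes ran from -0.56 to 0.51, with a median of -0.10.

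In cells 0 of 8 passed (edgeR), where 2.99% of all features did (2.88% higher and 0.113% lower), and DESeq2 called 0 as well. Camk2b and Rpl8 had an unadjusted p under 0.05. Camk2b stood at 62.29 ± 6.52 CPM in GW4869 cells against 39.38 ± 11.3 CPM in DMSO cells (0.66 ± 0.21, adjusted p = 0.109, edgeR), and passed with library totals (0.8). Rpl8 stood at 10.54 ± 2.7 CPM in GW4869 cells against 6.588 ± 1.87 CPM in DMSO cells (0.68 ± 0.33, adjusted p = 0.381, edgeR). The EV to cell ratio of Camk2b differed by -0.15 ± 0.29 between the cultures (adjusted p = 0.792, edgeR), which does not show that the ratios were alike. None of the 8 ratios passed, with edgeR or DESeq2, where 7.58% of all features did (1.75% higher and 5.83% lower), and 1 of them, that of Rpl8, had an unadjusted p under 0.05 (-1.06 ± 0.45, adjusted p = 0.151, edgeR).

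Ppat cannot be told apart from a neighbour on the opposite strand. The antisense gene 2310040G07Rik (chromosome 5, 76928368 to 76947758, plus strand) lies wholly within Ppat and covers 19391 bases, 50.6% of it. In resting EVs Ppat had 123, 133 and 217 reads and 2310040G07Rik 122, 131 and 210, so that the antisense count was 96.8% to 99.2% of the Ppat count. In the other libraries it ran from 50.0% up to the full Ppat count, and in 24 of 24 libraries it was not above it. The overlap touched 0 of the 11 exons of the Ppat transcript that spans it and lies within its first intron (76926858 to 76950956). Whether the same reads were counted for both genes is not known from the counts. Other genes overlap some of the 8 genes but are not listed, among them Paics, the neighbour of Ppat, and B3galnt2 beside Tbce.

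**Figure D4:**
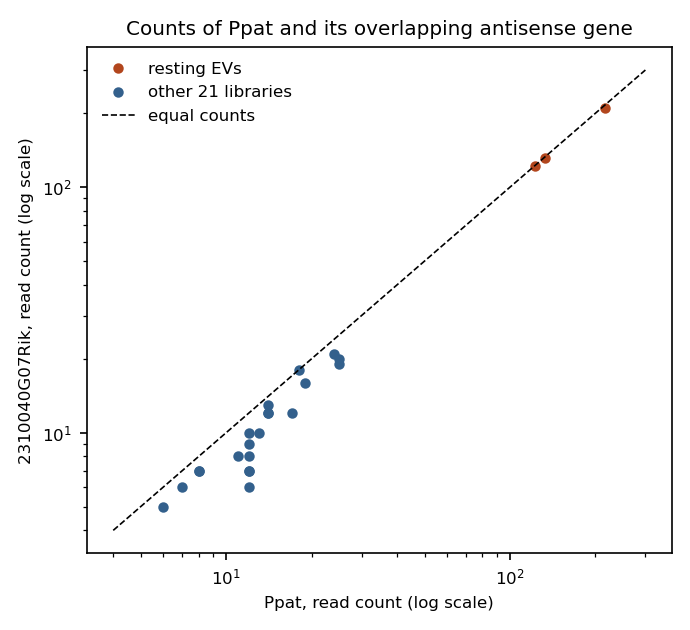
Each point is 1 of 24 libraries, with the read count of Ppat on the x axis and that of 2310040G07Rik on the y axis, both on log scales. The 3 resting EV libraries (red) lie just under the line of equal counts at 123 to 217 reads of Ppat, and the other 21 (blue) at or below it.

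Short fragments can also map to more than 1 gene. Transcripts of Camk2b shared at least 1 stretch of 20 bases with 32.1% of the other listed protein-coding genes, those of Zc3hav1 with 22.7% and those of Tbce with 14.5%. Ppat shared a stretch with 9.2%, Ctse with 7.64%, Rbbp8 with 2.85%, Srsf1 with 0.38% and Rpl8 with 0. Among the 8 genes themselves, Zc3hav1 shared a stretch with 3 others, Tbce and Ppat with 2 each and Camk2b with 1. Rbbp8, Srsf1, Rpl8 and Ctse shared with 0 of them. Shares for genes outside the 8 are not given here. How reads with several places were counted is not given in the sources used here. Pseudogenes, tRNAs and genes that are not listed were not compared, and the part of shared reads in the results was not tested.

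The features most like each gene over the 24 libraries, by Pearson's r of log2 CPM, were also high in resting EVs. For Rbbp8 and Tbce the nearest was Abi1, a regulator of actin (r = 0.956 and 0.959), at 125.2 ± 10.5 CPM in resting EVs against group means of 6.052 to 11.64 CPM elsewhere. The second was Eif4b, a factor of translation initiation, for Rbbp8 (0.942), and Egln3, an oxygen-sensing hydroxylase, for Tbce (0.935). For Rpl8 the nearest was Rn7s6, a 7S RNA locus (0.967), at 348.4 ± 73.9 CPM in resting EVs against 31.76 to 48.76 CPM, then AC156953.1, annotated as a miRNA (0.959). For Camk2b they were Sntg1, a syntrophin (0.923), and Rn7s6 (0.913).

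Srsf1 was nearest to fragments of the tRNAs tRNA-Glu-CTC-1-2 (0.931) and tRNA-Ala-TGC-1-1 (0.924). Zc3hav1 was nearest to Scd2, a fatty acid desaturase (0.973), at 296.6 ± 11.8 CPM in resting EVs and 61.16 CPM in resting cells, its next group, and to Galnt11, a glycosyltransferase (0.953). Ctse was nearest to Plcd3, a phospholipase C (0.971), and the antisense gene Gm20400 (0.967), both of which also had resting cells as their next group. Ppat was nearest to 2310040G07Rik (0.994) and Eef1a1, the translation elongation factor (0.962). These r values rest on the 3 resting EV libraries, which lie apart from the rest, and libraries of a group share their culture and depth.

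To the mean profile of the 8 genes, the closest features were Gm26624 (0.965), Rn7s6 (0.963), AC156953.1 and Galnt11 (0.96 each), AC157822.2 and Eef1a1 (0.959 each), and Egln3 and AC099934.2 (0.957 each). All 3 loci named AC156953.1, AC157822.2 and AC099934.2 are annotated as miRNAs, at 306.8, 332.0 and 330.0 CPM in resting EVs. Among the 28 pairs of the 8 genes, r ran from 0.51 to 0.96 over 24 libraries. Without the resting EVs it ran from -0.77 (Camk2b with Ctse) to 0.74 (Ctse with Ppat), and 11 of 28 pairs were above 0. Most of the genes had few reads in those libraries, which blurs r. These values therefore do not show whether the genes shared a pattern elsewhere.

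**Figure D5:**
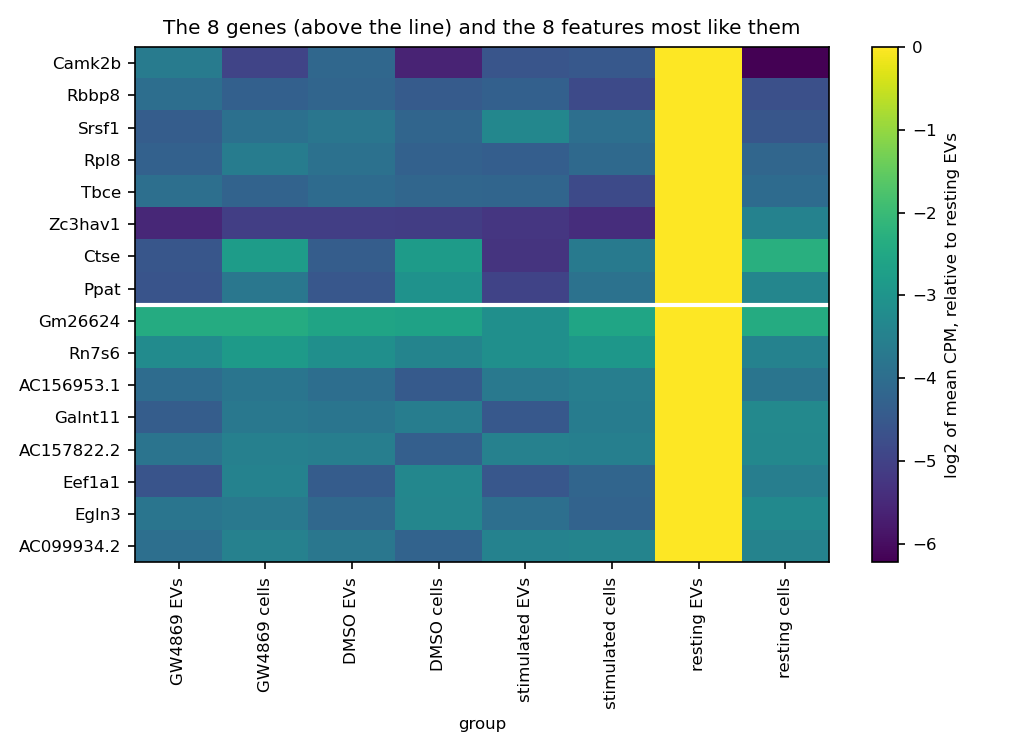
Colours give the log2 of the mean CPM in each of the 8 groups, relative to resting EVs, for the 8 genes (above the white line) and the 8 features most like them (below). Resting EVs are at 0 and every other group is lower, by 2.30 or more for the 8 genes.

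Relatives of the 8 genes, from lists of their pathways, were counted from the same tables. Of the related genes 45 were listed, and in resting EVs against resting cells 8 were higher and 16 lower (edgeR), where 34.3% of all features passed, 18.9% higher and 15.4% lower. Their median log2 fold was 0.08, against 0.10 over all features. In stimulated against resting EVs 5 were higher and 19 lower, where 54.1% of all features passed, 28.9% higher and 25.2% lower, with a median of -0.52 against 0.09. That split depends on the scaling, with 25 higher and 8 lower by library totals and 14 and 10 by protein-coding totals; of all features that passed, 53.4% were higher, 87.1% with library totals and 79.7% with protein-coding totals. Without any 1 resting EV library the count of related genes higher in stimulated EVs was 2 or 3, and without stimulated EVs replicate 1 or 3 it was 3. Without resting EVs replicate 3 the related genes higher in resting EVs than in resting cells numbered 5.

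Of the calcium/calmodulin kinases 4 of 16 were listed, and Camk1d and Camk2d were higher in resting EVs than in resting cells. Camk1d, another kinase of the family, had 517.4 ± 103.0 CPM in resting EVs against 202.6 ± 6.49 CPM in resting cells (1.35 ± 0.30, adjusted p = 0.00077, edgeR). It was higher in stimulated than in resting EVs, at 2120 ± 196.0 CPM against 517.4 CPM (2.04 ± 0.30, adjusted p = 3.37e-06, edgeR). Camk2d, the delta subunit of the same kinase as Camk2b, had 15.81 ± 3.67 CPM in resting EVs and 8.391 ± 3.21 CPM in resting cells (0.91 ± 0.33, adjusted p = 0.0323). Of the SR splicing factors, related genes and kinases of SR proteins, 4 of 16 were listed. Srrm2 (1.69 ± 0.24, adjusted p = 2.49e-06, edgeR) and Srsf10 (1.21 ± 0.41, adjusted p = 0.0228, edgeR) were higher in resting EVs than in resting cells. Srsf4 and the kinase Srpk2 did not pass, at 0.53 and 0.40. In stimulated against resting EVs, Srsf4 (-1.71 ± 0.24, adjusted p = 1.31e-06) and Srrm2 (-0.62 ± 0.21, adjusted p = 0.0173) were lower (edgeR). Srsf10 was higher there (0.75 ± 0.32, adjusted p = 0.0483, edgeR) and Srpk2 did not pass (-0.05).

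Ribosomal proteins were listed most often, 30 of them. Their names were found by a pattern that also caught 3 genes of S6 kinases (Rps6ka2, Rps6ka3 and Rps6kc1), which are counted in the 45. Of the 30, 24 held a listed small RNA, whose reads may also count for the gene around it. Of these 24, 1 was higher and 15 lower in resting EVs than in resting cells, with a median of -0.97, among them Rpl13a (-1.46 ± 0.17, adjusted p = 9.72e-08, edgeR). Of the 6 with no such RNA placed by name, as in Rpl8 itself, 2 were higher and 0 lower. This split, and the naming of these genes, came after the values were seen. They were Rps9, at 19.67 CPM in resting EVs (1.97 ± 0.37, adjusted p = 8.61e-05, edgeR), and Rplp0, at 20.41 CPM (1.94 ± 0.38, adjusted p = 0.000146, edgeR). Both were lower in stimulated than in resting EVs, by -2.27 ± 0.32 and -2.88 ± 0.35 (adjusted p = 1.31e-06 and 1.45e-07, edgeR). Rpl8 had a log2 fold of 4.16 in the first comparison and -4.35 in the second, given without a test.

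Among the partners of Rbbp8 in DNA end processing, 2 of 12 were listed. The helicase Blm was lower in resting EVs than in resting cells (-0.75 ± 0.29, adjusted p = 0.0473, edgeR) and Dna2 did not pass (0.17). In stimulated against resting EVs, Blm was lower (-2.09 ± 0.31, adjusted p = 3.19e-06, edgeR) and Dna2 did not pass (-0.48). Rbbp8 itself stood at -4.32 in that comparison, given without a test. The values that follow are again for resting EVs against resting cells. Of the tubulin and tubulin folding genes 1 of 12 was listed (Tubg1, -0.06), and of the antiviral RNA-binding genes 1 of 13 (Parp14, -1.02, adjusted p = 0.107), and neither passed. Of 13 cathepsins and 13 genes of purine synthesis, 0 were listed beside Ctse and Ppat.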

How the data were processed

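The starting point was the read counts per feature that the authors deposited, 1 table per small RNA library. Bowtie and the builds GRCm38 and mm10 are named, per the submitters' processing notes; version, settings, annotation, counting tool, strand and the treatment of reads with several places are not given in the sources used here. Each deposited table held 4441 lines, of which 33 repeated another and were dropped, which left 4408 features with a smallest count of 4. Coordinates came from GENCODE M21.

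Counts were fitted with edgeR 4.0.16 in R 4.3.3: TMM factors, filterByExpr (minimum count 10, 0 features removed), 1 quasi-likelihood model over 8 groups, Benjamini-Hochberg adjustment, threshold 0.05. The fit was tested on simulated data. Errors of folds are |log2 fold| over the square root of F. Likeness used log2 CPM with a prior count of 2. Precision is limited by small counts, down to 4 reads. The 8 genes and the lists were chosen with earlier results of these data known, so resting EV levels and contrasts among resting and stimulated libraries were not tested for the 8 genes. Named genes were the 8 members, up to 4 relatives per list, those with the highest mean CPM, 2 nearest features per gene, 8 nearest to the mean profile and small RNAs listed within a member; Rps9, Rplp0, the S6 kinase genes, 2310040G07Rik and the markers fall partly outside this rule and were named after their values were seen. Alternatives were RLE factors, library totals, protein-coding totals, a mean of at least 20 CPM, DESeq2 1.42.0, fits on 12 libraries, a replicate block and leaving out each library. Values of some single genes of these lists are not reported here.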

Additional observations from a re-analysis of the deposited data

Results flagged for a closer look

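In Ctse, EVs lay below cells in every library of the stimulated cultures and above them in every library of the resting cultures, so that each of these differed in direction from the resting fold of 2.30. The log2 folds of EVs over cells were -1.75 in GW4869, -1.59 in DMSO and -1.54 in stimulated cultures. In Ppat the same held for DMSO cultures, at -1.51, against 3.37 in resting cultures. The difference between cultures was not tested, since the resting libraries had served to choose the genes. Of all features, those with EVs below cells in every library of the one culture and above cells in every library of the resting cultures were 5.88% for GW4869, 3.61% for DMSO and 5.92% for stimulated cultures; the reverse pattern is not counted in these shares.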

How the results depend on the processing

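The finding that all 3 resting EV libraries lay above the other 21 held for 8 of 8 genes with RLE factors, library totals, protein-coding totals and without each resting EV library. In DMSO cultures, genes higher in EVs numbered 1, or 5 with library totals, and genes lower numbered 2, or 1 at a mean of at least 20 CPM, where Ppat was not among the features tested. In GW4869 cultures genes higher numbered 1, or 3 with library totals and 1 to 2 without 1 library, and genes lower numbered 2, or 1 with library totals, protein-coding totals, a mean of at least 20 CPM or the replicate block, 3 with RLE factors or DESeq2, and 1 to 3 without 1 library. The reversed value of Rpl8 there was 0.06 with library totals. Camk2b was the 1 gene higher with GW4869 in EVs under library totals, a mean of at least 20 CPM and DESeq2 (0 to 1 without 1 library), and in cells under library totals. Related genes higher in resting EVs numbered 8, or 5 at a mean of at least 20 CPM and 5 to 8 without 1 library. In stimulated against resting EVs 5 were higher, or 2 with RLE factors or DESeq2, 25 with library totals, 14 with protein-coding totals and 2 to 4 without 1 library; 19 were lower, or 8 and 10 with those totals and 16 to 19 without 1 library. The cause was not tested.

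Library totals moved the median log2 fold of all features by 0.59 and 0.75 for EVs against cells with DMSO and GW4869, 0.31 and 0.14 for GW4869 against DMSO in EVs and cells, 0.17 for the ratio and 0.14 for resting EVs against cells. Fits on 12 libraries called 118 features higher and 122 lower for GW4869 in EVs (348 and 427 with 24 libraries), 6 and 0 in cells (127 and 5), and 9 and 36 ratios (77 and 257). RLE factors called 60 and 5 in cells, and library totals 215 and 2 in cells and 35 and 127 ratios. Higher calls for GW4869 in EVs were 44.9% of calls, 84.1% with library totals; for ratios they were 23.1%, 34.2% with RLE factors and 35.5% with DESeq2. No clear pairing by replicate number was seen in the group pairs compared (correlations of deviations from group means, -0.37 to 0.16). Stimulated EVs and stimulated cells were not compared in this way. Small counts can hide a pairing, so same-numbered libraries may still have shared a culture. The replicate block ended 1 call of the 8 genes, that of Rpl8 (-0.70, adjusted p = 0.0545, edgeR).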
